A study of Mus musculus with 60 samples.

Results

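The histone deacetylases Hdac1 to Hdac10 were followed through somatic cell nuclear transfer (NT) and normal development in the mouse. The members are the 10 rows of the RPKM table whose Ensembl identifiers map to these symbols, of 27238 genes in all, and all 20 groups of the study were used. Each group held 3 libraries. Of the 60 libraries, 54 came from single embryos of 3 types at 6 stages, from the 1-cell embryo through cleavage and the morula to the blastula, and 6 came from donor cells. The in vivo embryos came from superovulated C57BL/6 females mated with DBA2 males. The NTC embryos were made by placing the nucleus of a BDF1 cumulus cell (CC) into an enucleated oocyte of a BDF1 female, and the NTM embryos with the nucleus of a BDF1 mouse embryonic fibroblast (MEF) held in low serum. All NT embryos were activated with strontium chloride and cytochalasin B, were exposed to Scriptaid, a compound that inhibits histone deacetylases, and were then grown in culture. The in vivo embryos developed in the female until collection, with none of these agents. Nuclear transfer, the strain of the oocyte, activation, Scriptaid and culture therefore cannot be told apart in any comparison of NT embryos with in vivo embryos.

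Histone deacetylases remove acetyl groups from lysines of histone tails, which goes with compact chromatin and low transcription. Class I enzymes (Hdac1, Hdac2, Hdac3 and Hdac8) are mostly nuclear, and Hdac1 and Hdac2 are the paired catalytic subunits of the Sin3, NuRD and CoREST corepressor complexes, whereas Hdac3 works in the NCoR and SMRT complexes. Class IIa proteins (Hdac4, Hdac5, Hdac7 and Hdac9) have little deacetylase activity of their own, bind MEF2 transcription factors and shuttle between nucleus and cytoplasm, and class IIb holds Hdac6, a cytoplasmic tubulin deacetylase, and Hdac10, a polyamine deacetylase. In the mouse, the embryo's own genome is switched on at the 2-cell stage, and transcripts laid down in the oocyte are lost around the same time.

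RPKM is the number of reads on a gene scaled by the length of its exons and by the reads on genes of the library. Depth ranged from 5294082 to 26281457 reads on genes in the embryo libraries and from 31558094 to 47829778 in the donor libraries. The 12 fibroblast markers summed to at most 22.3 RPKM in any embryo library, and the 12 cumulus markers to at most 57.5 RPKM. The in vivo 4-cell libraries stood apart from the NT libraries of that stage in other measures. Mitochondrial genes took 5.68 to 8.87% of their reads, against 31.6 to 34.7% in NTC and 29.6 to 40.4% in NTM 4-cell libraries. The in vivo shares were 4.71 to 13.4% at the 1-cell, 7.32 to 12.7% at the 2-cell and 32.1 to 45.0% at the 8-cell stage. Genes above 0 numbered 13576 to 13932 in the in vivo 4-cell libraries, against 10824 to 11929 in NTC and 8997 to 10930 in NTM. The correlation of log2(RPKM + 1) between the in vivo 4-cell replicates was 0.944 to 0.958, against 0.842 to 0.866 in NTC and 0.762 to 0.793 in NTM. Another measure, the split of reads between Hdac1 and a pseudogene, is given with Hdac1. The embryos of a stage came from at least 3 independent experiments, and p-values measure the spread between single-embryo libraries.

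Hdac1 and Hdac2 made up most of the summed RPKM of the 10 members in embryos, a sum without Hdac11 and the sirtuins. Together they held 58.3 to 99.9% (median 96.4%) of the RPKM summed over the 10 members in the 54 embryo libraries. Hdac2 reached 1 RPKM in all 54 embryo libraries and Hdac1 in 43 of them. The counts at or above 1 RPKM were 22 for Hdac6, 20 for Hdac3, 16 for Hdac9, 7 for Hdac8, 5 each for Hdac4 and Hdac5, 2 for Hdac10 and 0 for Hdac7. Each of these 8 members thus stayed below 1 RPKM in most embryo libraries. The libraries held no molecular identifiers, so a listed value of 0 sets a limit on reads and not on transcripts.

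**Figure D1:**
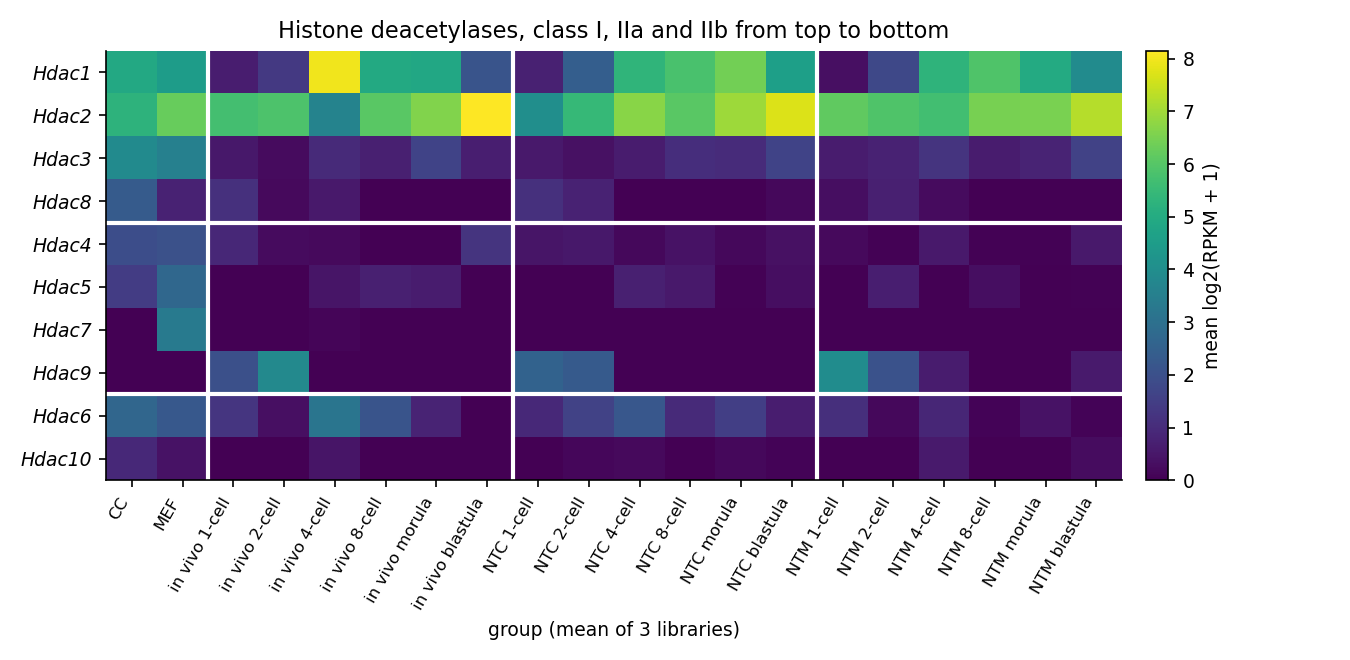
Mean log2(RPKM + 1) of the 10 histone deacetylases (rows, class I above class IIa above class IIb) in the 20 groups (columns, 3 libraries each). Hdac2 is bright in nearly every column, Hdac1 reaches its highest group mean, 250 RPKM, in in vivo 4-cell embryos, and Hdac9 is brightest at the 1-cell and 2-cell stages.

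Hdac2 (ENSMUSG00000019777, chr10:36974544-37001889 on the plus strand, GENCODE M21, build GRCm38) was present from the 1-cell embryo on. Its promoter is shown because Hdac2 was the member found in every library. The RefSeq promoter (GRCm38.p6, chr10:36974294-36974593, plus strand, 250 bases before to 50 bases after the start) is written 5′ to 3′ with each CG in capitals.
Hdac2 promoter: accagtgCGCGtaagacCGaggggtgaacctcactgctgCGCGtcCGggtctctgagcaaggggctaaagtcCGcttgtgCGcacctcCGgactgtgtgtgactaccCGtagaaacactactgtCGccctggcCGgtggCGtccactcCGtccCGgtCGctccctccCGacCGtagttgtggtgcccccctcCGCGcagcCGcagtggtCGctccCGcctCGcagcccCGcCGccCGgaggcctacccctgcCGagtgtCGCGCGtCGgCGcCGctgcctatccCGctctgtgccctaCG
This stretch holds 36 CG, against a median of 7 in the 32851 promoters of the table, and 94.1% of the promoters hold fewer or as many.

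In in vivo embryos, Hdac2 was measured at 45.7, 58.9 and 51.4 RPKM in the 1-cell libraries and at 46.0, 39.2 and 103 in the 2-cell libraries. It was at 11.1, 13.2 and 10.7 RPKM at the 4-cell stage and at 57.4, 105 and 47.8 at the 8-cell stage. The values were 57.4, 121 and 129 RPKM in morulae and 255, 289 and 307 in blastulas. All 3 in vivo 4-cell libraries lay below every other in vivo library, and the blastulas lay above all of them. In NTC embryos, Hdac2 was at 22.8, 12.4 and 12.4 RPKM at the 1-cell stage, 31.7, 48.7 and 51.3 at the 2-cell stage and 146, 94.2 and 78.8 at the 4-cell stage. The later NTC values were 77.8, 59.1 and 61.0 RPKM (8-cell), 141, 116 and 114 (morula) and 286, 166 and 191 (blastula). The lowest NTC libraries were thus the 1-cell and not the 4-cell libraries. In NTM embryos, the successive stages gave 102, 55.7 and 61.0 RPKM, then 61.4, 69.8 and 48.7, then 28.6, 51.3 and 85.9 at the 4-cell stage. NTM 8-cell embryos had 113, 95.6 and 64.8 RPKM, morulae 73.4, 91.7 and 110, and blastulas 232, 159 and 94.8. The NTM stages overlapped widely, with 1 of the 3 blastulas inside the range of the morulae.

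Hdac1 (ENSMUSG00000028800, chr4:129516104-129542713 on the minus strand) followed another course. In in vivo embryos it was at 0, 0.763 and 1.17 RPKM at the 1-cell stage, 1.64, 0.230 and 4.13 at the 2-cell stage and 267, 242 and 241 at the 4-cell stage. The in vivo 8-cell libraries had 47.9, 22.1 and 25.8 RPKM, the morulae 10.6, 52.9 and 39.4, and the blastulas 7.36, 7.09 and 0.177. All 3 in vivo 4-cell libraries lay above every other library of the study. NTC embryos had 0.717, 0.0911 and 1.51 RPKM, then 5.43, 1.55 and 8.33, and 52.2, 32.9 and 36.2 at the 4-cell stage. Their later values were 64.3, 53.2 and 47.6 RPKM (8-cell), 121, 96.4 and 52.9 (morula) and 22.0, 18.0 and 31.5 (blastula). In NTC embryos the highest mean of Hdac1 was that of the morulae, whose lowest library lay within the range of the 8-cell stage. NTM embryos had 0, 0.962 and 0 RPKM, then 22.7, 0.717 and 0, and 15.4, 38.1 and 95.9 at the 4-cell stage. The later NTM values were 59.4, 61.0 and 55.3 RPKM, then 29.2, 38.4 and 26.2, and 24.5, 22.7 and 4.87 in blastulas. The 2-cell and 4-cell stages of NTM embryos overlapped through a single 2-cell library with 22.7 RPKM.

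**Figure D2:**
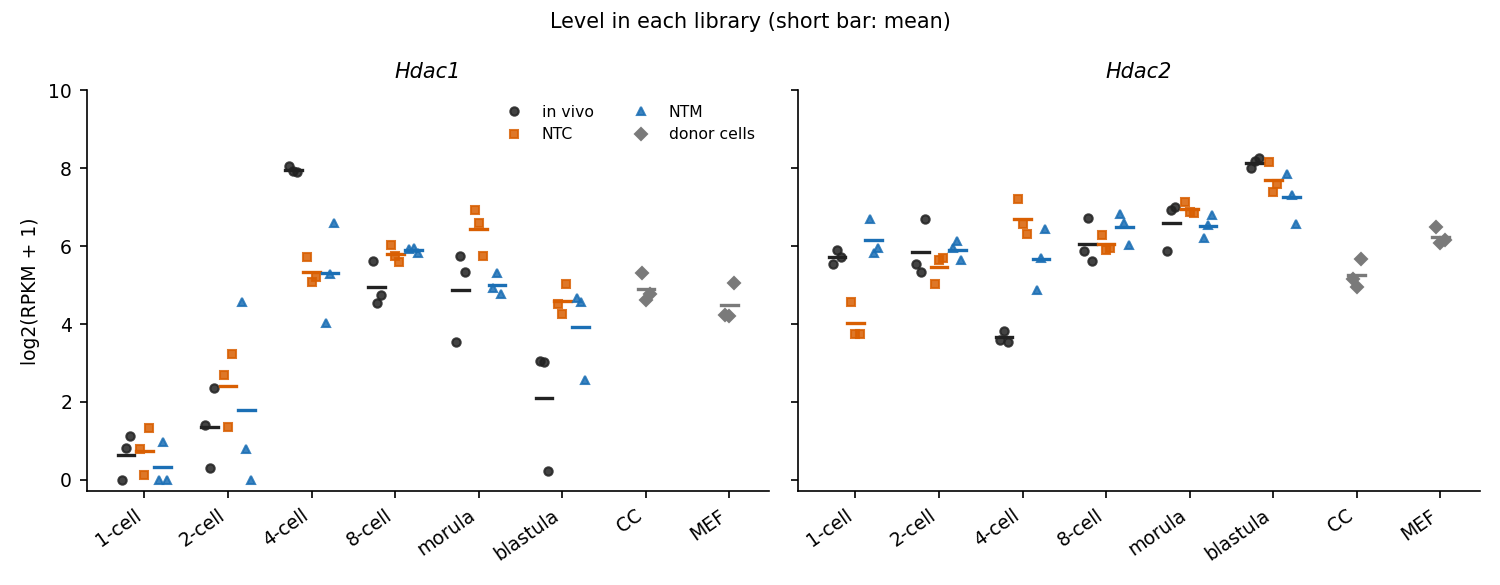
Level of Hdac1 (left) and Hdac2 (right) in each library, as log2(RPKM + 1), by stage and donor cell type, with a short bar at the mean of 3 libraries. At the 4-cell stage the in vivo circles of Hdac1 lie above all NT points and those of Hdac2 below all NT points.

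Reads of Hdac1 can be confused with those of near-identical copies. The processed pseudogene Gm10093 matches the Hdac1 transcript at 99.38% of 1444 aligned bases, and it is in the table. It took 1.55 to 2.88% of the reads on both genes in the in vivo 4-cell libraries, against 36.8 to 44.5% in NTC and 22.4 to 57.3% in NTM 4-cell libraries. Over all 33 other embryo libraries from the 4-cell stage to the blastula, its share was 5.07 to 87.5% (median 28.9%). The in vivo 4-cell libraries thus had the lowest shares of these stages, and the part of this split in the Hdac1 values was not tested. Fits were repeated with the reads of both genes summed, an alternative chosen after seeing the data, and their values are given beside each Hdac1 call and wherever they changed one.

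The first comparison asked which members changed from stage to stage. Genes with a mean of at least 0.5 RPKM in the libraries compared were tested with limma on log2(RPKM + 1), and calls needed an adjusted p under 0.05 with a change of at least 1 on the log2 scale. At the in vivo step from 2-cell to 4-cell, 4 of 5 tested members were called, where 52.2% of all 12995 genes tested were called. Hdac1 rose by 6.62 ± 0.54 on the log2 scale (SE, n = 3 against 3, limma adjusted p 9.05e-05), and its mean RPKM was 125 times that of the 2-cell stage. Hdac2 fell by 2.20 ± 0.44 (adjusted p 0.00488 by limma), with a mean RPKM 5.37 times higher before than after. The same step took Hdac6 up by 2.85 ± 0.45 (adjusted p 0.00151 by limma), and Hdac9 fell by 3.83 ± 0.48 (adjusted p 0.000534 by limma). These 4 calls held under every alternative tried and without any 1 library. With Gm10093 summed in, the Hdac1 change was 6.50. From 4-cell to 8-cell embryos, 2 of 5 tested members were called among 43.7% of all genes. Hdac1 fell by 3.01 ± 0.32 (adjusted p 0.000321 by limma) and Hdac2 rose by 2.41 ± 0.37 (adjusted p 0.0016 by limma). Both members thus turned in opposite directions at the entry into and the exit from the 4-cell stage. The 2 steps share the same 3 in vivo 4-cell libraries and are not independent results. From 4-cell to 8-cell embryos the median change of all genes tested was -1.05 on the log2 scale. It was -0.16 after scaling each library by the median ratio of its genes to their means, under which both calls held at -1.60 for Hdac1 and 3.75 for Hdac2. With Gm10093 summed, Hdac1 was at -2.68 (adjusted p 0.000736).

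In the remaining in vivo steps limma called no member. None of 6 was called from 1-cell to 2-cell embryos (0% of all genes), none of 5 from the 8-cell stage to the morula (0.0116%) and none of 5 from the morula to the blastula (0.801%). At an unadjusted p under 0.05 the counts were 0, 0 and 2 members. Among all genes tested they were 615 of 10854, 873 of 8592 and 1480 of 8619. The 2 members at the last step were Hdac1, at -2.77 ± 1.04 (limma adjusted p 0.224), and Hdac2, at 1.54 ± 0.54 (limma adjusted p 0.201). The 3 libraries of the morula and of the blastula did not overlap for either gene. With Gm10093 summed they overlapped for Hdac1, with a blastula at 20.3 RPKM and a morula at 17.6. One fit over all 20 groups, which pools the spread of every group, called Hdac1 and Hdac2 (limma adjusted p 0.0105 and 0.00624).

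In NTC embryos, 1 of 5 tested members was called from the 1-cell to the 2-cell stage, beside 13.5% of all genes, and 2 of 4 from the 2-cell to the 4-cell stage, beside 36.6%. Hdac2 rose by 1.44 ± 0.34 at the first of these steps (limma adjusted p 0.0241) and by 1.24 ± 0.39 at the second (limma adjusted p 0.035). Hdac1 rose by 2.92 ± 0.56 at the second step (limma adjusted p 0.0042). The Hdac1 call held under every alternative and every omission of a library, and with Gm10093 summed the change was 3.25 (adjusted p 0.00134). At the first step Hdac1 differed by 1.67 ± 0.60 (limma adjusted p 0.0988) and was called with Gm10093 summed (2.06, adjusted p 0.0372) and without the second 2-cell library (2.21, adjusted p 0.031). The first Hdac2 call was lost with no filter on low values (adjusted p 0.0555) and without the second or the third library of either stage (adjusted p up to 0.116). The second was lost with median-ratio scaling, without any of the 2-cell libraries and without the first or the second 4-cell library (adjusted p up to 0.101). From the morula to the blastula 1 of 4 was called, beside 7.16% of all genes: Hdac1 fell by 1.83 ± 0.39 (limma adjusted p 0.0264), and with Gm10093 summed the change was -1.57 (adjusted p 0.0603). It was also lost without the first or the second library of either stage (adjusted p up to 0.101), with no filter on low values (0.0926) and with one fit over all 20 groups (0.247). Among the other NTC steps, limma called 0 of 5 members from 4-cell to 8-cell embryos (0.0564% of all genes, and 0 members at an unadjusted p under 0.05). It called 0 of 4 from the 8-cell stage to the morula (0% of all genes, and 1 member at an unadjusted p under 0.05, Hdac2 at 0.90 ± 0.33). At that unadjusted level these steps had 1139 of 10634 and 1270 of 10107 of all genes tested.

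In NTM embryos no member was called at any step. The counts were 0 of 7 from 1-cell to 2-cell embryos (9.4% of all genes), 0 of 7 from the 2-cell to the 4-cell stage (26.4%) and 0 of 4 from the 4-cell to the 8-cell stage (0.363%). They were 0 of 3 from the 8-cell stage to the morula (0%) and 0 of 3 from the morula to the blastula (4.22%). At an unadjusted p under 0.05 the 5 counts were 0, 1, 0, 1 and 0, with Hdac1 as the member each time. Among all genes tested they were 2782 of 10920, 4576 of 11742, 1092 of 9632, 843 of 8841 and 2276 of 9823. From the 2-cell to the 4-cell stage Hdac1 differed by 3.52 ± 1.22 (limma adjusted p 0.0635). Without the 2-cell library at 22.7 RPKM the difference was 4.92 (adjusted p 0.0158), and with Gm10093 summed it was 4.08 (adjusted p 0.0346). Hdac2 differed by -0.24 ± 0.57 at this step.

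Because the in vivo 4-cell libraries stood apart, the 2-cell stage was also compared with the 8-cell stage, a comparison chosen after seeing the data. Hdac1 rose in all 3 embryo types, by 3.61 ± 0.64 in vivo (limma adjusted p 0.00315), 3.38 ± 0.55 in NTC (adjusted p 0.00198) and 4.11 ± 1.08 in NTM (adjusted p 0.0185). With Gm10093 summed the changes were 3.82, 3.30 and 4.54, all called. The NTM call was lost with no filter on low values (adjusted p 0.0517), without any of the 8-cell libraries and without the second or the third 2-cell library (adjusted p up to 0.0788). Hdac2 was not called in any type and differed by 0.21 ± 0.53, 0.60 ± 0.37 and 0.58 ± 0.38, although with nuclear genes only it was called in NTC (1.07) and NTM (1.10). In all, 2 of 5 tested members were called in vivo (41.6% of all genes), 1 of 5 in NTC (35.1%) and 1 of 6 in NTM (39.8%). The second in vivo call was Hdac9, which fell by 3.82 ± 0.55 (adjusted p 0.00117 by limma).

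NT embryos were next set against in vivo embryos, stage by stage. Both NT types were compared with the same in vivo libraries. At the 4-cell stage Hdac1 was at 250 ± 14.5 RPKM in vivo (SD, n = 3), 40.4 ± 10.3 in NTC and 49.8 ± 41.5 in NTM. Hdac2 was at 11.7 ± 1.33 RPKM in vivo, 106 ± 35.3 in NTC and 55.2 ± 28.9 in NTM. For both genes the in vivo libraries did not overlap with either NT type. In every comparison of this report, overlap was examined for the members only, and its share over all genes was not counted. Hdac1 was lower in NTC by a log2 change of -2.62 ± 0.26 (SE, limma adjusted p 0.000162), with a mean 6.18 times higher in vivo, and Hdac2 was higher by 3.04 ± 0.32 (limma adjusted p 0.000241), with a mean 9.12 times that in vivo. In NTM the changes were -2.66 ± 0.60 for Hdac1 (limma adjusted p 0.0183), with a mean 5.02 times higher in vivo, and 2.02 ± 0.50 for Hdac2 (limma adjusted p 0.0254), with a mean 4.73 times that in vivo. These were 2 calls among 5 tested members in each NT type, where 27.8% of all genes were called in NTC and 21.1% in NTM. The median change of all genes tested was -0.39 in NTC and -0.69 in NTM, and -0.03 and -0.11 after median-ratio scaling, under which all 4 calls held. With Gm10093 summed, Hdac1 was at -1.94 in NTC (adjusted p 0.000593) and -2.04 in NTM (adjusted p 0.0185). The NTC calls held without any 1 library, but both NTM calls were lost when any 1 of the 3 in vivo libraries was left out (adjusted p 0.0746 to 0.09), and that of Hdac1 also with no filter on low values (0.0523).

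**Figure D3:**
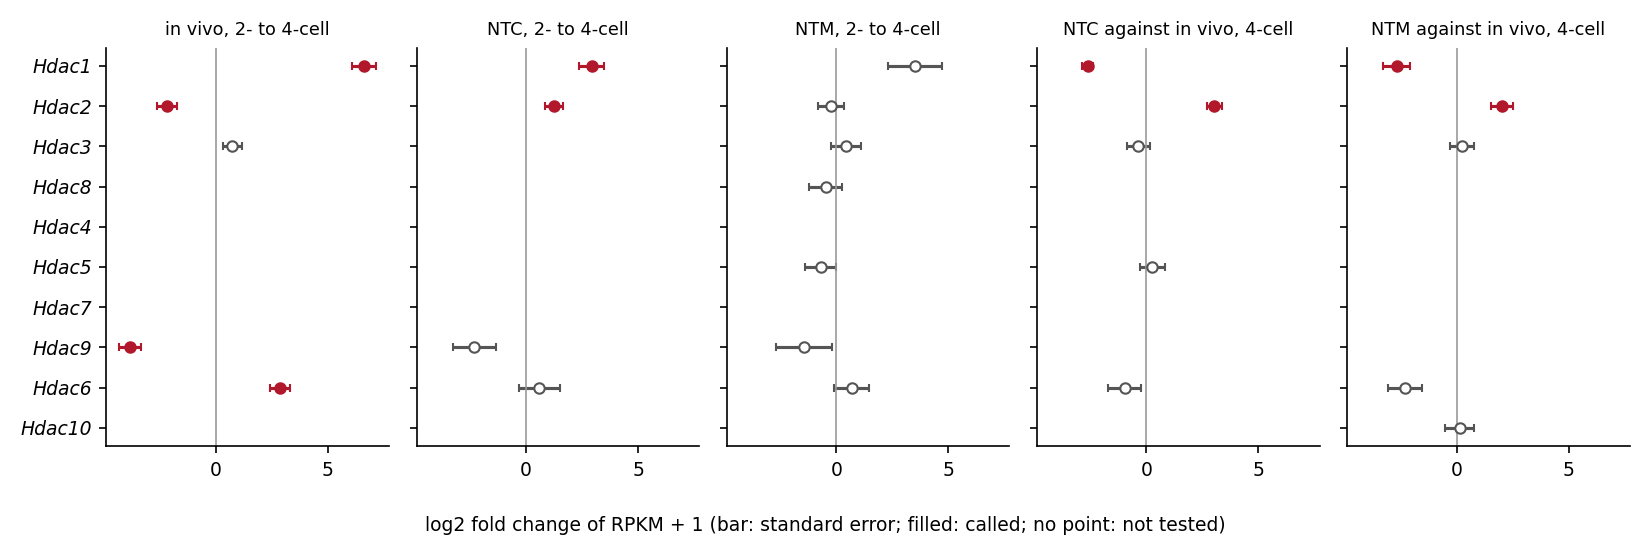
Log2 fold change of RPKM + 1 with its standard error for each tested member (rows) at the step from the 2-cell to the 4-cell stage in the 3 embryo types and for NTC and NTM against in vivo 4-cell embryos. Filled red points were called, open points were tested and not called, and members without a point did not reach a mean of 0.5 RPKM. Hdac1 and Hdac2 lie on opposite sides of 0 at the in vivo step and in both comparisons with in vivo embryos, with the sides exchanged.

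Whether a step itself differed between embryo types was tested with an interaction term. From the 2-cell to the 4-cell stage, the change of Hdac2 in NTC exceeded that in vivo by 3.44 ± 0.60 (limma adjusted p 0.00237), and the change of Hdac1 fell short of it by a log2 difference of -3.69 ± 0.80 (limma adjusted p 0.00875). With Gm10093 summed the Hdac1 term was -3.25 (adjusted p 0.0183). These were 2 calls among 5 tested members, where 14.3% of all genes were called. For NTM, 0 of 5 members were called by limma (9.91% of all genes) and 2 had an unadjusted p under 0.05, namely Hdac2 at 1.97 ± 0.73 (adjusted p 0.116) and Hdac6 at -2.16 ± 0.90 (adjusted p 0.163). Of all 13062 genes tested for this NTM term, 3116 had an unadjusted p under 0.05. The NTM term of Hdac1 was -3.09 ± 1.47. No member was called by limma in the terms for the step from 1-cell to 2-cell embryos (NTC 0 of 6, 0.0256% of all genes, and NTM 0 of 6, 0.204%) or from the morula to the blastula (NTC 0 of 5, 0.236%, and NTM 0 of 4, 0.647%). At an unadjusted p under 0.05 these 4 counts were 0, 1, 1 and 0. Among all genes tested they were 1341 of 11730, 1439 of 11278, 1414 of 9747 and 1728 of 9583.

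Since both enzymes sit in the same complexes, the balance of their transcripts was followed within each library as log2((Hdac1 + 1)/(Hdac2 + 1)). The scaling of the library nearly cancels in it only where both genes are well above 1 RPKM. Hdac1 was near or below 1 RPKM in the 1-cell libraries, some 2-cell libraries and 1 in vivo blastula. There the ratio follows mainly the level of Hdac2 and moves with the scaling. Hdac2 was the higher of the pair in most embryo libraries, and Hdac1 was higher in 4 of 54, the 3 in vivo 4-cell libraries and 1 NTM 4-cell library. At the 4-cell stage the log2 ratio was 4.31 ± 0.19 in vivo (SD, n = 3), -1.35 ± 0.22 in NTC and -0.37 ± 0.51 in NTM. The mean of the 6 NT libraries minus that of the in vivo libraries was -5.17, without overlap (exact permutation test, two-sided, p 0.0119, the smallest that 84 arrangements allow, 0.0357 after adjustment over 6 stages). With Gm10093 summed the difference was -4.52, with the same p. At the blastula stage the ratio was -6.05 ± 1.73 in vivo, -3.12 ± 0.54 in NTC and -3.32 ± 0.65 in NTM, a difference of 2.83 with the NT libraries higher (exact permutation p 0.0119, adjusted 0.0357). With Gm10093 summed it was 2.44, with the same p. It was 1.83 without the in vivo blastula with Hdac1 at 0.177 RPKM. The in vivo blastulas had fewer genes above 0, 7730 to 7808, against 11771 to 13000 in NTC and 11498 to 13568 in NTM. Correlation between their replicates was 0.7095 to 0.718, against 0.901 to 0.937 in NTC and 0.896 to 0.920 in NTM. The part of these measures in the blastula ratio was not tested. At the other stages the NT libraries differed from in vivo by 0.52 (1-cell), 0.92 (2-cell), 0.68 (8-cell) and 0.71 (morula), with exact permutation p of 0.607, 0.405, 0.119 and 0.155. At these stages the NT libraries, pooled over both types, overlapped with the in vivo libraries. NTC alone did not overlap with in vivo at the 1-cell stage (-3.79 to -2.41 against -5.55 to -4.60). The same held in morulae (-1.09 to -0.216 against -2.33 to -1.18). NTM overlapped at both stages, with a lower mean than in vivo at the 1-cell stage (-5.83 against -5.08). The pooled 1-cell difference of 0.52 thus averages opposite differences, and the types were not tested apart. In the donor cells, the ratio was -0.37 ± 0.53 in CCs and -1.75 ± 0.60 in MEFs.

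**Figure D4:**
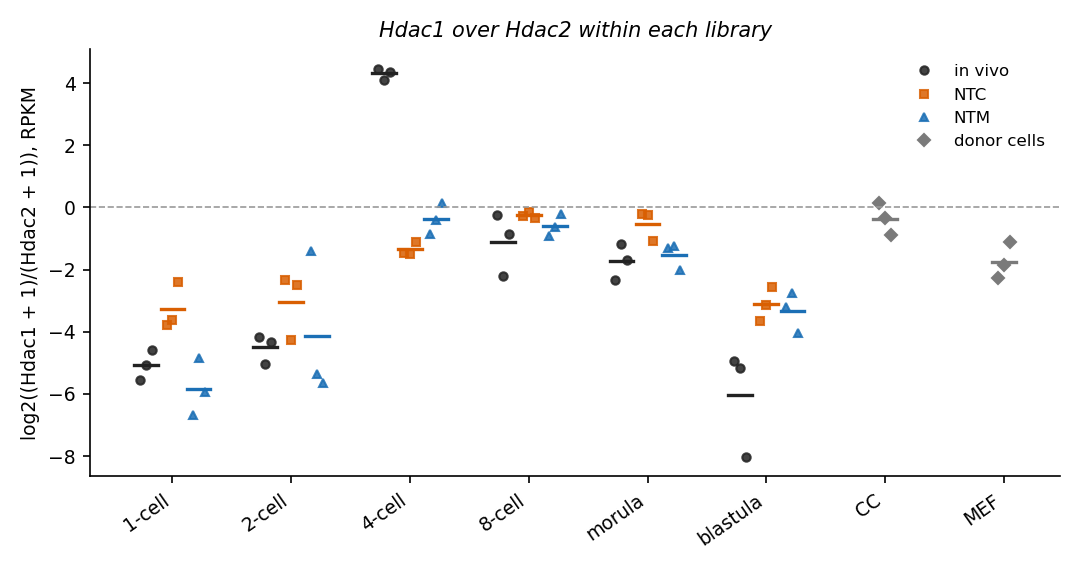
The log2 ratio of Hdac1 to Hdac2 (RPKM + 1) in each library, by stage and donor cell type, with a short bar at the mean and a dashed line where both are equal. The in vivo 4-cell libraries, at 4.10 to 4.46, lie far above the line, just above which lie 1 NTM 4-cell library, at 0.157, and 1 CC library, and the in vivo blastulas, at -8.03 to -4.94, are the lowest points of their stage.

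Outside the 4-cell stage limma called no member between NT and in vivo embryos. In NTC, 0 of 6 tested members were called at the 1-cell stage (1.16% of all genes), 0 of 5 at the 2-cell stage (0.152%), 0 of 5 at the 8-cell stage (1.46%), 0 of 4 at the morula (0.0321%) and 0 of 4 at the blastula (9.46%). In NTM the counts were 0 of 6 (1.28%), 0 of 6 (0.141%), 0 of 4 (2.02%), 0 of 4 (0.168%) and 0 of 4 (0.746%). At an unadjusted p under 0.05 there were 1, 0, 0, 1 and 1 members in NTC, and 0, 0, 2, 0 and 0 in NTM. Among all genes tested, the NTC counts were 2517 of 10834, 1097 of 11822, 1893 of 9520, 1247 of 9341 and 2684 of 9288. Those in NTM were 1525 of 10307, 1067 of 11345, 1594 of 8607, 849 of 8955 and 2458 of 9380. The member at the 1-cell stage was Hdac2, which in NTC embryos lay below all in vivo libraries at -1.70 ± 0.36 (limma adjusted p 0.0639, and 0.00668 without the first in vivo library). In morulae and blastulas it was Hdac1, which in NTC lay above all in vivo libraries at 1.56 ± 0.61 (limma adjusted p 0.317) and 2.49 ± 0.90 (limma adjusted p 0.117). In morulae the lowest NTC library was at 52.94 RPKM and the highest in vivo library at 52.88. With Gm10093 summed these morulae overlapped, at 55.8 RPKM in that NTC library and 64.4 in that in vivo library. The NTM members, both without overlap at the 8-cell stage, were Hdac6 at -2.04 ± 0.67 (limma adjusted p 0.144) and Hdac1 at 0.93 ± 0.38 (limma adjusted p 0.228). In whole blastulas, a change in the share of a cell type and a change per cell cannot be told apart.

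Between the NT types, Hdac2 was called at the 1-cell stage. It was at 72.9 ± 25.5 RPKM in NTM and 15.9 ± 5.97 in NTC (SD, n = 3), without overlap, and was higher in NTM by 2.14 ± 0.32 (SE, limma adjusted p 0.00258), with a mean 4.60 times that in NTC. This call held under every alternative and without any 1 library. It was 1 of 6 tested members, beside 19.8% of all genes. No member was called by limma at the 2-cell stage (0 of 7, 0% of all genes), the 4-cell stage (0 of 4, 0%), the 8-cell stage (0 of 4, 0.0507%), the morula (0 of 4, 0%) or the blastula (0 of 3, 0%). At an unadjusted p under 0.05 the 5 counts were 0, 0, 0, 1 and 0, the 1 being Hdac1 in morulae, at -1.43 ± 0.38 (limma adjusted p 0.125). Among all genes tested they were 772 of 11609, 602 of 10233, 1294 of 9853, 1534 of 9186 and 315 of 10187.

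Hdac3 (ENSMUSG00000024454), the catalytic subunit of NCoR and SMRT, was higher in donor cells than in embryos. It was at 23.2, 8.83 and 13.1 RPKM in CCs and at 10.5, 9.02 and 13.1 in MEFs, and its group means in embryos ran from 0.205 to 2.44 RPKM. All 6 donor libraries lay above every embryo library, the highest of which was an NTM blastula with 4.37 RPKM. No comparison among embryos called Hdac3.

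Hdac8 (ENSMUSG00000067567, chrX:102284639-102505359 on the minus strand), a class I enzyme known for deacetylating the cohesin subunit Smc3, was above 0 mostly in the early stages. In vivo it was at 1.07, 2.40 and 0.513 RPKM at the 1-cell stage, 0.577, 0 and 0 at the 2-cell stage and 0.582, 0.583 and 0.266 at the 4-cell stage. NTC 1-cell embryos had 1.21, 1.02 and 1.32 RPKM, and all 3 NTC 4-cell libraries were at 0. NTC 2-cell embryos had 0.035, 1.54 and 0.937 RPKM. NTM embryos had 0.0146, 0.503 and 0.225 RPKM, then 3.14, 0.0901 and 0, and 0, 0 and 0.684 at the 4-cell stage. From the 8-cell stage on, 3 libraries were above 0, at 0.0579 RPKM (NTC 8-cell), 0.0141 (in vivo morula) and 0.425 (NTC blastula). Hdac8 was at 0 in 32 of 54 embryo libraries, and a floor of 3 reads was 0.0523 to 0.065 RPKM in the NTC 4-cell libraries. In donor cells it was at 5.95, 5.80 and 1.82 RPKM in CCs and at 0, 0 and 3.91 in MEFs.

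**Figure D5:**
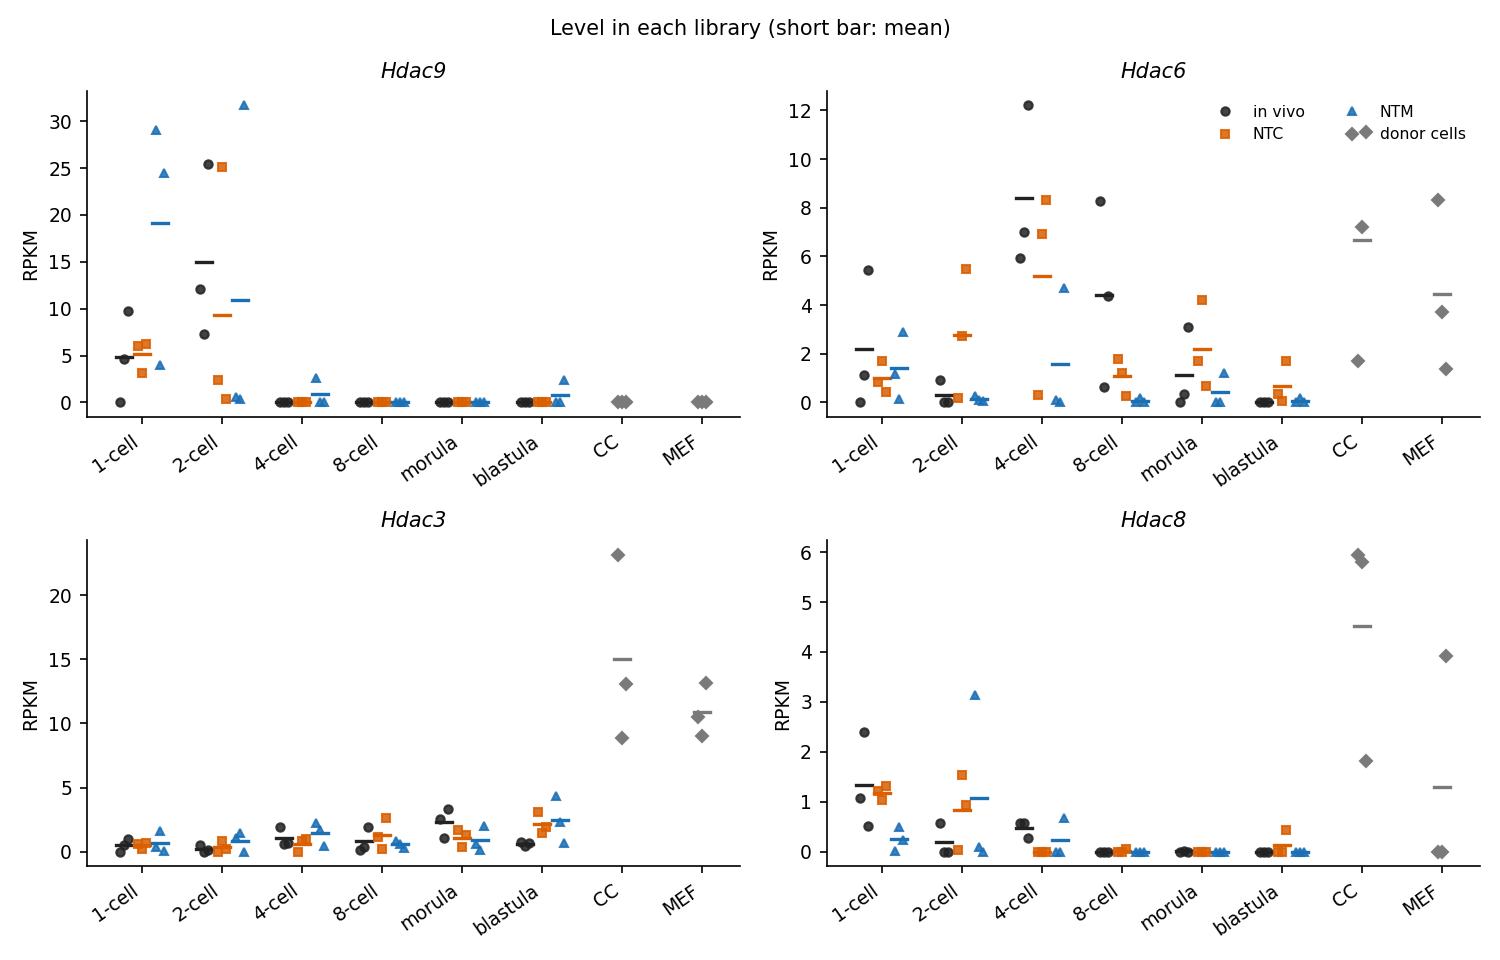
RPKM of Hdac9, Hdac6, Hdac3 and Hdac8 in each library by stage and donor cell type, with a short bar at the mean of 3 libraries and a separate linear axis for each gene. Hdac9 stands at the 1-cell and 2-cell stages, Hdac6 has its highest embryo values at the 4-cell stage, and Hdac3 is highest in CCs and MEFs.

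Hdac9 (ENSMUSG00000004698, chr12:34047580-34917095 on the minus strand), a MEF2-binding class IIa protein, was highest at the 1-cell and 2-cell stages. It was at 0.0433, 4.68 and 9.72 RPKM in in vivo 1-cell embryos and 12.1, 7.31 and 25.5 in 2-cell embryos, and at 0 in all 3 libraries of the 4-cell stage. NTC embryos had 6.01, 3.11 and 6.28 RPKM, then 2.41, 25.1 and 0.384, and 0 in all 3 libraries at the 4-cell stage. NTM embryos had 29.1, 3.95 and 24.4 RPKM, then 0.589, 0.394 and 31.7, then 2.56, 0.0231 and 0. The 2-cell values spread widely in both NT types, with a single library above 25 RPKM in each. Against a floor of 3 reads per library, mean RPKM at the 4-cell stage was at least 323 times below the 2-cell mean in vivo. In NTC it was at least 143 times below a 2-cell mean that came mostly from the library at 25.1 RPKM. Both figures limit reads and not transcripts. The limma change was -2.32 ± 0.97 in NTC (adjusted p 0.0927) and -1.44 ± 1.23 in NTM (adjusted p 0.399). Without the NTC 2-cell library at 0.384 RPKM the NTC change was called by limma (-3.24, adjusted p 0.0403). With all libraries it was called with a pseudocount of 0.1 (-4.97, limma adjusted p 0.0299). One fit over all 20 groups also called it (-2.32, limma adjusted p 0.0147). From the 8-cell stage on, a single embryo library was above 0.05 RPKM, an NTM blastula with 2.34. In CCs and MEFs Hdac9 was at most 0.0215 RPKM. The values fit an exon length of 4422 bases, where GENCODE M21 gives 14665, so not all isoforms of GENCODE M21 were counted, and isoforms were not told apart.

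RefSeq lists 2 promoters of Hdac9 (GRCm38.p6, minus strand, chr12:34917046-34917345 for the first and chr12:34528840-34529139 for the second). They are shown with CG in capitals, for comparison with Hdac2, because Hdac9 was called lower after the 2-cell stage in vivo.
Hdac9 promoter, first: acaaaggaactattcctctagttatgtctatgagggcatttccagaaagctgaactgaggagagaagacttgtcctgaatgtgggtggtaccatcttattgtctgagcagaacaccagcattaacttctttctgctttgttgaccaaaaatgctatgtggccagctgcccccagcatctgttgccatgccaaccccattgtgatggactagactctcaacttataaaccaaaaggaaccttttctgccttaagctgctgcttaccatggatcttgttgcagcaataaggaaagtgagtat
Hdac9 promoter, second: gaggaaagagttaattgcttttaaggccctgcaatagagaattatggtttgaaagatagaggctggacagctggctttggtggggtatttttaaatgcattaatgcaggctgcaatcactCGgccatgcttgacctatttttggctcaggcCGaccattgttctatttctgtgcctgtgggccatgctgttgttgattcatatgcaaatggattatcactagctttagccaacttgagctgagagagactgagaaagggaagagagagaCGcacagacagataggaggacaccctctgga
They hold 0 and 3 CG, against 36 in the Hdac2 promoter, and 2.7% and 27.3% of the 32851 promoters hold fewer or as many. The motif TATAAA, searched on both strands, is in the first and in 13.6% of all promoters, and it is not in the second or in that of Hdac2. The table held 11 promoters of 7 members. Hdac4, low in embryos, had 32 CG, and Hdac7, above 0 in 2 of 54 embryo libraries, had 31, 6, 35 and 5. Hdac5 had 18, Hdac6 20 and Hdac8 6. A relation of CG content to level was not tested.

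Hdac4, Hdac5 and Hdac7, the other class IIa members, were low in embryos. Hdac4 (ENSMUSG00000026313, chr1:91928779-92195699, minus strand) was at 2.36, 1.05 and 6.96 RPKM in CCs and 1.17, 3.43 and 6.01 in MEFs, and 5 of 54 embryo libraries reached 1 RPKM. The highest of these was a single in vivo blastula at 12.1 RPKM, where the other two blastulas had 0.0076 and 0. Its exons overlap those of Gm26720 over 22.36% of their length, so part of its reads may be shared. Hdac5 (ENSMUSG00000008855, chr11:102194432-102230166, minus strand) was at 0 in all 9 libraries of the 1-cell stage and in the 6 in vivo and NTC libraries of the 2-cell stage. It was above 0 in every library of the in vivo and NTC 4-cell stage, with in vivo values of 0.78, 0.0229 and 0.405 RPKM and NTC values of 0.358, 2.09 and 0.0666, whereas NTM 4-cell embryos had 0.0065, 0 and 0. Hdac7 (ENSMUSG00000022475, chr15:97792664-97844502, minus strand) was above 0 in 2 of 54 embryo libraries and never reached 1 RPKM there.

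Of the class IIb pair, Hdac6 (ENSMUSG00000031161, chrX:7930120-7947889, minus strand) was at 0.932, 0 and 0.0208 RPKM in in vivo 2-cell embryos and at 5.94, 7.0 and 12.2 in 4-cell embryos, without overlap. In vivo 8-cell embryos had 8.28, 0.630 and 4.38 RPKM, and the blastulas 0, 0 and 0.015. NTC 4-cell embryos had 0.324, 6.91 and 8.30 RPKM and NTM 4-cell embryos 0.0889, 0 and 4.68. All NTM values at the 4-cell stage lay below the in vivo values, at -2.30 ± 0.77 (limma adjusted p 0.07). Without the NTM library at 4.68 RPKM the difference was -3.11 (adjusted p 0.00865). Hdac10 (ENSMUSG00000062906, chr15:89123307-89128700, minus strand) was above 0 in 14 of 54 embryo libraries, and its highest group mean, 0.799 RPKM in NTM 4-cell embryos, came from a single library at 2.40.

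Donor cells were compared with each other and with the NT embryos made from them. Between MEFs and CCs, 1 of 9 tested members was called, beside 6.29% of all genes. Hdac7, a class IIa member, was at 8.37, 14.3 and 5.98 RPKM in MEFs and at 0.0097, 0.0057 and 0.0229 in CCs. It was higher in MEFs by 3.30 ± 0.70 on the log2(RPKM + 1) scale (limma adjusted p 0.0258), a call lost without any of the CC libraries without the first or the second MEF library (adjusted p up to 0.0908) and with no filter on low values (0.0865). The 12 fibroblast markers summed to 8921 to 11735 RPKM in MEFs and to 6.59 to 16.1 in CCs, whereas the 12 cumulus markers did not separate the types, at 678 to 1943 RPKM in CCs and 519 to 1239 in MEFs. Their part in the result was not tested.

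At the 1-cell stage, 4 of 9 tested members were called in NTC embryos against CCs (50% of all genes) and 6 of 9 in NTM embryos against MEFs (55.2%). Hdac1 was lower than in CCs by a log2 change of -4.16 ± 0.41 and than in MEFs by -4.17 ± 0.42 (limma adjusted p 0.000444 and 0.00021), or by -4.60 and -4.63 with Gm10093 summed. Hdac3 fell by 3.35 ± 0.40 and 2.93 ± 0.42 (adjusted p 0.00103 for each by limma), and Hdac9 rose by 2.56 ± 0.32 and 3.95 ± 0.70 (adjusted p 0.00119 and 0.00279 by limma). Hdac2 fell by 1.25 ± 0.35 in NTC against CCs (limma adjusted p 0.0285), a call lost without the third CC library or the second or the third NTC library (adjusted p up to 0.1), and it was at -0.09 ± 0.31 in NTM against MEFs. In NTM embryos Hdac5 fell by 2.71 ± 0.30, Hdac7 by 3.31 ± 0.38 and Hdac4 by 1.83 ± 0.50 (adjusted p 0.000314, 0.000354 and 0.0183 by limma), of which the Hdac4 call was lost without the second MEF library or the first or the third NTM library (adjusted p up to 0.0636). The 1-cell embryo holds the oocyte's RNA, so these comparisons set that pool against a donor cell.

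At the blastula stage, 3 of 8 tested members were called in NTC against CCs (24.2% of all genes) and 4 of 8 in NTM against MEFs (30.8%). Hdac2 rose by 2.44 ± 0.35 in NTC blastulas over CCs (limma adjusted p 0.00303), and in NTM blastulas over MEFs it differed by 1.01 ± 0.40 (adjusted p 0.094 by limma), and by 1.53 with median-ratio scaling (adjusted p 0.00561). Hdac3 fell by 2.28 ± 0.54 and 1.94 ± 0.54 (adjusted p 0.0213 and 0.0276 by limma), and Hdac8 fell by 2.18 ± 0.58 in NTC (adjusted p 0.0324 by limma). In NTM, Hdac5 fell by 2.66 ± 0.44, Hdac7 by 3.32 ± 0.48 and Hdac6 by 2.15 ± 0.59 (adjusted p 0.00263, 0.00142 and 0.0256 by limma). The Hdac3 call in NTC was lost without any of the NTC libraries, and those of Hdac3 in NTM, Hdac8 and Hdac6 without any of 5 of the 6 libraries (adjusted p up to 0.0873, 0.0798, 0.124 and 0.0826). The last 3 were also lost with no filter on low values (0.0571, 0.0752 and 0.0751). Hdac1 was not called in either, at -0.31 ± 0.41 in NTC and -0.56 ± 0.64 in NTM.

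The partners of the members were counted over 53 genes of the sirtuins, the corepressor complexes, MEF2 and Hdac11, of which 52 were in the table. At the in vivo step from 2-cell to 4-cell embryos, 12 of 44 tested partners rose and 9 fell, with a median change of 0.27 beside 0.36 for all genes, of which 52.2% were called. Among those that rose, Cdk2ap1, a NuRD subunit, went from 3.68 ± 4.79 to 205 ± 14.3 RPKM (log2 change 6.03), and Gps2, an NCoR and SMRT subunit, from 0.785 ± 1.21 to 40.4 ± 4.68 (log2 change 4.73). Brms1 of the Sin3 complex rose by 4.46, the deacetylase Sirt6 by 3.84, the histone-binding Rbbp4 by 3.66 and Dnttip1 of the MiDAC complex by 1.37 (limma adjusted p at most 0.0364). At the step from 4-cell to 8-cell embryos, 4 of 43 partners rose and 17 fell, with a median of -0.92 beside -1.05 for all genes, of which 43.7% were called.

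At the 4-cell stage, 5 of 44 tested partners were higher and 10 lower in NTC than in vivo (median -0.31, all genes -0.39 with 27.8% called), and 3 of 45 were higher and 11 lower in NTM (median -0.45, all genes -0.69 with 21.1% called). Gps2 was at 0.639 ± 0.358 RPKM in NTC and 0.730 ± 0.565 in NTM, with log2 changes of -4.68 and -4.63. Sirt6 was at 25.7 ± 1.29 RPKM in vivo, 4.53 ± 2.85 in NTC and 1.41 ± 0.588 in NTM (log2 changes -2.45 and -3.50). Rbbp4 was lower in both (log2 changes -2.30 and -2.68). The NuRD subunit Mta2 was lower in NTC (-4.77) and its relative Mta3 in NTM (-3.82), Brms1 (-3.19) and Hmg20b (-1.91) were lower in NTM, and Ing2 of the Sin3 complex was higher in NTC (4.34). Each of these had a limma adjusted p of at most 0.0354, and both NT types were set against the same in vivo libraries.

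Genes with the most similar profile were found by the Pearson correlation of log2(RPKM + 1) over the 20 group means among 18881 genes, as a description. The groups share library preparation and, within a stage, the same timing. For Hdac1 these were Exosc5 (r = 0.970) and Impdh1 (0.966), for Hdac2 Gnb1 (0.865) and Anp32b (0.796), for Hdac3 Gabarapl1 and Sorbs3 (0.959 each) and for Hdac8 Smox (0.951) and Arhgef28 (0.938). Hdac4 was nearest to Myof and Ncstn (0.923 each), Hdac5 to Pck2 (0.927) and Gpsm1 (0.919), Hdac9 to Serpinb12 (0.981) and Gm15285 (0.978), and Hdac6 to Osbpl2 (0.814) and Fbxl6 (0.813). Hdac7, seen almost only in MEFs, was nearest to Gm37521, and Hdac10 to Lcmt2 (0.911) and E230029C05Rik (0.900). Between members, r was 0.008 for Hdac1 and Hdac2, -0.824 for Hdac1 and Hdac9 and 0.814 for Hdac5 and Hdac7.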

How the data were processed

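Single embryos and donor cells were sequenced after cDNA tailing and amplification, without molecular identifiers or strand marking. The authors removed redundant reads, mapped the rest with TopHat and Bowtie2, counted them with HTSeq and deposited RPKM values per gene. The submitters' notes name Bowtie 0.12.2 and build mm8, and the table holds no coordinates, so those here are from GENCODE M21 (GRCm38). Reads were recovered from the steps of the RPKM values (whole within 0.05) for depths, floors of 3 reads and copy shares, which cover counting error only.

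The deposited RPKM values were tested with limma 3.58.1 in R 4.3.3 (eBayes with trend) over genes with a mean of at least 0.5 RPKM, with Benjamini-Hochberg adjustment over all genes tested. The script was tested on simulated data. Ratios used exact permutation tests in Python 3.11.15 with scipy 1.17.1, and copies were found with blastn 2.17.0.

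The members and lists were chosen with earlier results of these data known. Named partners were, per list, the called gene with the largest change in each of 3 comparisons, and the 2 most similar genes were named per member. A result that this rule names is not reported here. Alternatives were a pseudocount of 0.1, no filter, no fold threshold, median-ratio scaling, nuclear genes only, a joint fit of the 20 groups, the replicate block and leaving out each library. Summing Gm10093 and comparing the 2-cell with the 8-cell stage were chosen after seeing the data.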

Additional observations from a re-analysis of the deposited data

Results flagged for a closer look

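The step from the 2-cell to the 4-cell stage differed between NTC and in vivo embryos for 2 members, by the interaction term of limma. For Hdac2 the term was 3.44 on the log2 scale (in vivo change -2.20, NTC change 1.24), and all 3 NTC 4-cell libraries lay above the 3 in vivo ones. For Hdac1 the term was -3.69 (in vivo change 6.62, NTC change 2.92), and all 3 NTC 4-cell libraries lay below the 3 in vivo ones. Both were called in every alternative and without any 1 library. The in vivo 4-cell libraries, on which both rest, had the lowest mitochondrial share of the stage (5.68 to 8.87% of reads). They also had the lowest share of Hdac1 reads on Gm10093 (1.55 to 2.88%). Both terms were called with nuclear genes only and with Gm10093 summed. Beyond these fits, the part of either measure in these results was not tested.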

How the results depend on the processing

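The in vivo steps gave 6 calls, and 8 with one fit over all 20 groups. In NTC embryos 4 calls became 2 without the filter on low values and 2 with the replicate block. In NTM embryos 0 calls became 1, Hdac1 from the 2-cell to the 4-cell stage, with median-ratio scaling, nuclear genes only, one fit over all 20 groups, the replicate block, and Gm10093 summed. Against in vivo embryos, 2 NTC calls became 4 with one fit over all groups, and 2 NTM calls became 1 without the filter and 3 with one fit over all groups, which added Hdac6 at the 4-cell stage (-2.30, adjusted p 0.0152). The 2 interaction calls became 5 with one fit over all groups, which assumes one spread for every group. For the log2 ratio, permutation within the replicate block left -5.17 at the 4-cell stage and 2.83 at the blastula with p 0.037 and adjusted p 0.111, the smallest that block allows. Without single libraries, the in vivo steps gave 6 to 6 calls, the NTC steps 3 to 4, the NTM steps 0 to 1, NTC against in vivo 2 to 3, NTM against in vivo 0 to 3, NTM against NTC 1 to 2, donor cells 14 to 18 and the interaction 2 to 3. The ratio difference ran from -5.38 to -5.05 (4-cell, adjusted p 0.0536 to 0.107) and from 1.83 to 3.38 (blastula), with too few arrangements for a lower adjusted p, and from 0.095 to 0.951 (1-cell), 0.486 to 1.33 (2-cell), 0.135 to 1.10 (8-cell) and 0.413 to 0.985 (morula). Replicate numbers did not pair libraries: in 0 of 41 comparisons was every same-number correlation above 0.1 (range -0.205 to 0.119). The replicate block lost 5 calls, those of Hdac2 in NTC from 2-cell to 4-cell (adjusted p 0.0625), Hdac1 in NTC from morula to blastula (0.0568), Hdac7 between MEFs and CCs (0.0622), and Hdac2 in 1-cell (0.0663) and Hdac8 in blastula NTC embryos against CCs (0.0853). A pseudocount of 0.1 lost no call and moved low genes most, as Hdac9 (-7.05) and Hdac6 (5.12) at the in vivo 2-cell to 4-cell step. It added calls of Hdac9 in NTC from the 2-cell to the 4-cell and to the 8-cell stage. It also added Hdac6 in vivo from the 2-cell to the 8-cell stage and Hdac4 in NTC 1-cell embryos against CCs. No result changed its direction. Depth limits Hdac7, Hdac8 and Hdac10 in embryos, where values of a few reads cannot be compared.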

Other observations

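Single libraries held far more of a member than the other two of their group. An in vivo blastula had 12.1 RPKM of Hdac4, an NTM 2-cell embryo had 31.7 RPKM of Hdac9 and 3.04 RPKM of Hdac5 beside 0 of Hdac1, and another NTM 2-cell embryo had 22.7 RPKM of Hdac1 and 3.14 RPKM of Hdac8. A CC library had 6.12 RPKM of Hdac10 and 8.73 RPKM of Hdac5, where the other two had at most 0.0079 and 1.13. These libraries were noticed after their values were seen, and no test was made of them.

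The RPKM summed over the 10 members was 273 ± 12.7 in in vivo 4-cell embryos (SD, n = 3), 154 ± 39.8 in NTC and 111 ± 71.4 in NTM. In in vivo 4-cell embryos 91.6% of this sum was Hdac1 and 4.29% Hdac2, and in in vivo blastulas 1.71% was Hdac1 and 96.6% Hdac2, so that the sums of 273 and 293 RPKM at these stages were made of different members. In NTC 4-cell embryos 26.4% was Hdac1 and 68.4% Hdac2.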
